A study of Homo sapiens with 8 samples.

Results

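The peaks described here are those that the deposited m6A peak list assigned to zinc finger genes of the ZNF series. They were chosen by name: every row whose gene name began with ZNF and a number was taken, and antisense names were left out. The rule took 1650 of the 42272 peaks in the list, and they carried 471 of its 16701 gene names. Of these names, 451 were plain gene symbols with 1600 peaks, 16 were pseudogene names with 38 peaks, and 4 were hyphenated names (ZNF670-ZNF695, ZNF426-DT, ZNF8-ERVK3-1 and ZNF625-ZNF20) with 12 peaks. Chromosome 19 held 818 peaks in 229 of these genes, and the other chromosomes held 832 peaks in 242 genes.

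The study transfected U251, an established human glioblastoma cell line, with an siRNA against HNRNPC, an RNA-binding protein, or with a negative control siRNA, and sequenced fragments of RNA with and without enrichment by an antibody to m6A (MeRIP-seq). The labels give 8 samples in 4 groups of 2, named si-NC input, si-HNRNPC input, si-NC 48h and si-HNRNPC 48h. They leave unsaid whether the samples taken at 48 h were the antibody-enriched ones. The list has 1 row per peak and no column per library, and no column says which transfection a peak came from. The name of the list sets siRNA IP against siRNA input. Both transfections used an siRNA, so the name does not settle which siRNA is meant. The knockdown could therefore not be compared with its control, the depth and the spread between replicates are unknown, and every result is a comparison among peaks or genes of 1 list. Peaks and genes are not replicates, so no test was made, and the 95% intervals cover counting error alone. All 7 glioma markers looked up (SOX2, NES, VIM, CD44, GFAP, EGFR and OLIG2) had a peak, and neither the leukocyte gene PTPRC nor the hepatocyte gene ALB was listed. Since 62.2% of all protein-coding genes had a peak, and depth is unknown, this says little about the identity of the cells.

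N6-methyladenosine (m6A) is a methyl mark placed on adenosines of messenger RNA inside short motifs such as GGAC. It is commonly found near stop codons, in 3′-UTRs and in long internal exons. C2H2 zinc finger genes are the largest family of human transcription factor genes. Many of them pair a KRAB domain, which recruits co-repressors, with an array of fingers that reads DNA, and many lie in clusters on chromosome 19. The finger array is usually encoded by a single long last coding exon that runs into the 3′-UTR.

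The list gives positions and not bases, so the letters beneath the peaks were not analysed here, apart from some transcript starts. The only ZNF sequences at hand were RefSeq promoter windows of GRCh38.p14, each of which ends 50 bases after a gene's start. Of the 471 genes, 388 matched this table, 188 of them had the same transcript start in the list, and 46 had their first 50 bases inside a peak. GGAC, searched on the transcribed strand, occurred in the first 50 bases of 6 of these 46 genes (13.0%). It occurred in 18.8% of the 27305 windows of the table and in 18.6% of its 462 ZNF windows. The 6 are shown to place the motif at the start of ZNF transcripts whose 5′ end lay inside a peak. Each line gives 30 bases 5′ to 3′ from RefSeq, with GGAC in capitals.
ZNF518B: gccccccgggtagGGACctacagcgggcgc
ZNF470: acttccggaaaGGACccaaagccgggcgag
ZNF219: aaacagaaaagagctgcagcGGACgccact
ZNF24: ctgcgtctgccgtGGACagcgaagctgctg
ZNF324: ccacaccggtggtctgggctggGGACcgcg
ZNF214: cgggctgcggccattgtttgtgtGGACtga
These windows lie at chr4:10457390-10457419 (minus strand), chr19:56567468-56567497 (plus), chr14:21104673-21104702 (minus), chr18:35344387-35344416 (minus), chr19:58467100-58467129 (plus) and chr11:7020297-7020326 (minus), in the same order. The peak above each was listed as 5′-UTR, with a fold enrichment of 10.8 for ZNF518B, 15.3 for ZNF470, 9.80 for ZNF219, 5.99 for ZNF24, 1.71 for ZNF324 and 6.54 for ZNF214. The log10 p was -97.5 for ZNF518B, -7.90 for ZNF470 and between -4.01 and -1.31 for the other 4. A motif match is a description of the letters and not a mapped site.

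Peaks were listed for most ZNF genes. Of the 517 RefSeq protein-coding genes with a ZNF symbol, 446 had at least 1 peak (86.3%, interval 83.0 to 89.0), against 62.2% of all 20056 protein-coding genes. On chromosome 19 the count was 221 of 250 (88.4%, 83.8 to 91.8), and on the other chromosomes 225 of 267 (84.3%, 79.4 to 88.1). Other protein-coding genes of chromosome 19 stood at 61.3%, close to the share over the genome. The intervals of the 2 ZNF groups overlapped. At an FDR under 0.05, 1393 of the 1650 ZNF peaks (84.4%) passed, beside 81.6% of the whole list. At an FDR under 0.001 it was 1070 (64.8%), beside 62% of the list, so single ZNF peaks passed about as often as others. By gene the shares lay further apart: 440 of 471 ZNF genes (93.4%) reached that level with at least 1 peak, and 76.2% of the other genes with a peak did. A share by gene also depends on the number of peaks per gene, a mean of 3.50 in ZNF genes and 2.50 in other genes. The level of each transcript is not in the list. The parts of peak number and transcript level in these shares were not tested.

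ZNF genes also carried more peaks each. The mean was 3.50 peaks per gene (SD 2.12) against 2.50 (SD 2.09) for all other genes, and the medians were 3 and 2. The group of all other genes held 16230 names, while 12028 protein-coding genes without a ZNF symbol had a peak. It therefore also holds names outside the protein-coding genes. Their part in any comparison with this group was not tested. At least 3 peaks were found in 292 ZNF genes (62.0%, 57.5 to 66.3) and in 36.0% of other genes. A single peak was found in 79 ZNF genes (16.8%), against 39.1% of other genes. Chromosome 19 members had 3.57 peaks per gene (SD 2.16) and the others 3.44 (SD 2.08), a difference of 0.13 with an interval from -0.25 to 0.52, and the sign turned when peaks at an FDR under 0.001 alone were counted. Merging overlapping rows of a gene into 1 peak left 1504 peaks and a mean of 3.19 for ZNF genes and 2.28 for other genes.

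**Figure D1:**
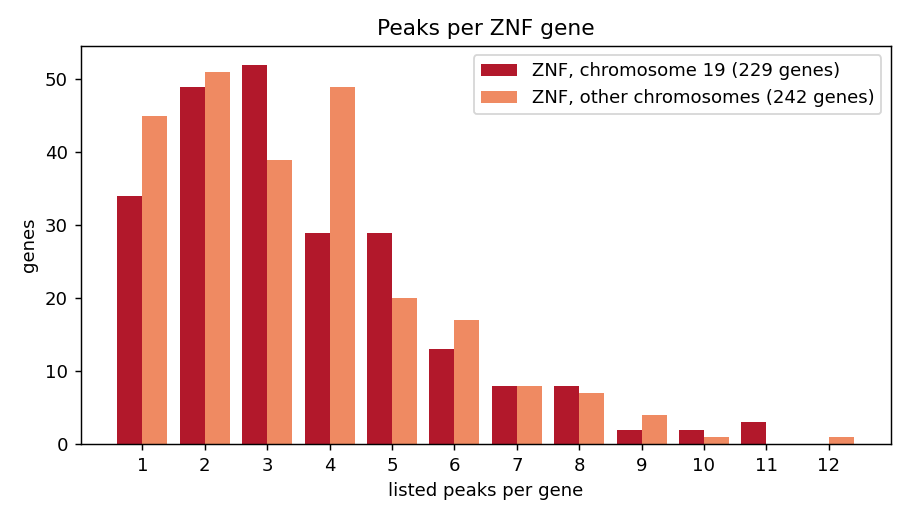
Number of genes (vertical axis) by number of listed peaks per gene (horizontal axis), for ZNF genes of chromosome 19 and of other chromosomes. Genes with 1 peak numbered 34 and 45 (14.8% and 18.6% of the groups), and the 2 distributions lay close together.

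The genes with the most peaks differed in their make-up. ZNF337 on chromosome 20 had 12 rows, the most of any ZNF gene, which merged into 9 peaks because several rows repeated nearly the same interval. Its 6 exon rows were all placed in an exon of another gene. ZNF549 had 11 peaks that stayed 11 after merging. All of them were labelled 3′-UTR, with folds from 2.29 to 10.9, and they were spread from chr19:57537205 to chr19:57556764. ZNF428 also had 11 rows, which merged into 5 peaks. Of the rows, 7 were exon rows placed in exon 3 of 3 of another gene, at folds from 2.31 to 18.5, and its peak of the lowest p was a 539-base 3′-UTR peak with a fold of 16.9 and a log10 p of -434. ZNF544 had 11 rows that merged into 8 peaks. ZNF587, ZNF394 and ZNF473 had 10 rows each, and after merging 6, 7 and 10. ZNF473 encodes a protein of histone mRNA 3′ end processing, and its 10 peaks were all short (179 to 811 bases) with folds from 1.93 upward and none at a log10 p below -27.5. ZNF213, ZNF155 and ZNF462 followed with 9 rows each, and ZNF483, ZNF519 and ZNF814, which stood behind them by lowest p, also had 9.

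The single peaks of the 79 genes with 1 peak were mostly wide. Of those peaks, 48 were 3′-UTR, 20 were 5′-UTR and 11 exon, and their median was 1463 bases at a median fold of 8.71. ZNF784 was one of them, with a single 3′-UTR peak of 1786 bases. ZNF10, ZNF281, ZNF335, ZNF639 and ZNF703 were others.

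By region, the 3′-UTR was the most frequent label. It was given to 835 ZNF peaks (50.6%, 48.2 to 53.0), 5′-UTR to 431 (26.1%, 24.1 to 28.3) and exon to 384 (23.3%, 21.3 to 25.4). In all other genes the shares were 43.9%, 23.4% and 32.7%. That group mixes protein-coding genes with other names, and the part of this mix in the differences by region was not tested. Each peak has 1 label, and the sources used here do not give the order in which labels were assigned, so a long peak named 3′-UTR can reach into the coding part of a last exon. At least 1 3′-UTR peak was listed for 384 ZNF genes (81.5%, against 60.9% of others), more than 1 for 216 (45.9%, against 26.7%), and both a 3′-UTR and a 5′-UTR peak for 204 (43.3%, against 26.2%). In 105 ZNF genes (22.3%, against 24.5% of others) every peak was in the 3′-UTR.

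Chromosome 19 members had relatively more 3′-UTR and fewer exon peaks than the other ZNF genes. The 3′-UTR share was 54.2% (50.7 to 57.5) on chromosome 19 and 47.1% (43.7 to 50.5) elsewhere, a difference of 7.04 points with an interval from 2.22 to 11.8. The exon share was 19.9% (17.3 to 22.8) against 26.6% (23.7 to 29.7), a difference of -6.64 points (-10.7 to -2.56), and the 5′-UTR shares were 25.9% and 26.3%. With 1 peak per gene, that of the lowest p, the 3′-UTR difference was 3.70 points (-5.15 to 12.5). The exon difference was 0.80 points (-5.58 to 7.24), so it turned its sign. Both intervals then included no difference. Among genes without a ZNF name, those of chromosome 19 stood at 46.8% 3′-UTR and 29.2% exon peaks.

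**Figure D2:**
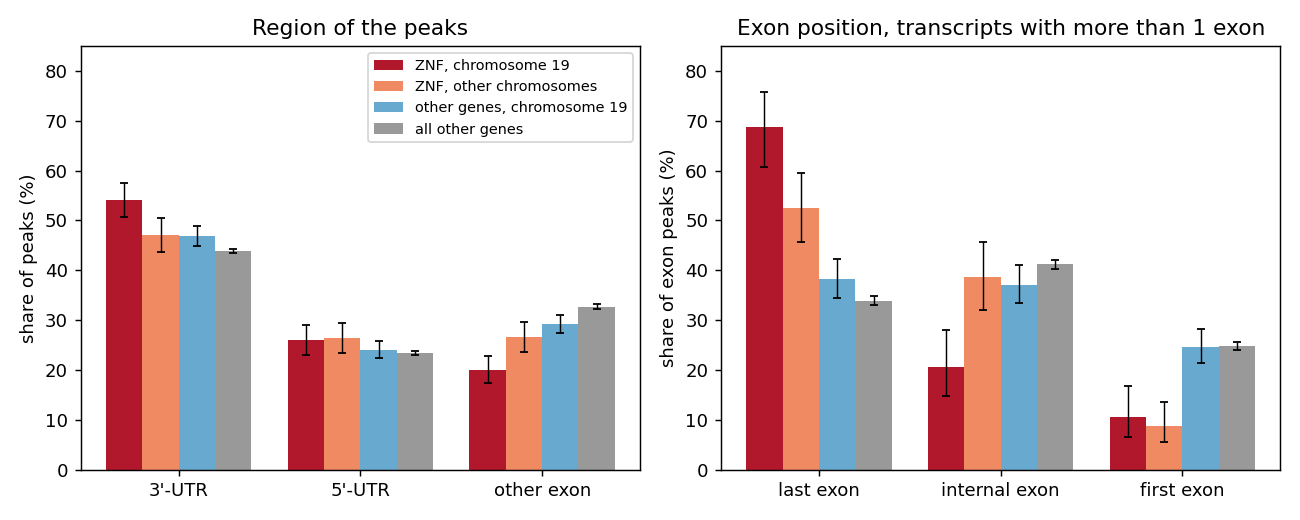
Share of peaks (%, vertical axis) labelled 3′-UTR, 5′-UTR or other exon in each group of genes, with exon position in the panel beside it, where last, first and internal exons are shares of the exon peaks in transcripts of more than 1 exon. Bars give shares and error bars 95% Wilson intervals, and the ZNF genes of chromosome 19 had the highest last-exon share, 68.8%.

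The 3′-UTR share also differed within chromosome 19. Ordering the RefSeq protein-coding genes along chromosome 19 gave 16 runs of at least 5 neighbouring ZNF genes, with 183 genes in all. Of these, 159 had a peak (86.9%) and together they carried 578 peaks, of which 58.5% (54.4 to 62.4) were 3′-UTR. Outside the runs, 62 of 67 ZNF genes (92.5%) had a peak, and of their 221 peaks 45.2% (38.8 to 51.8) were 3′-UTR, near the share of ZNF genes on other chromosomes. The 2 intervals did not overlap, but they treat peaks as independent, and the 578 and 221 peaks came from 159 and 62 genes. Keeping a single peak per gene was not tried for this split, and no test of the difference was made. The intervals therefore do not settle whether genes inside and outside the runs differ. The mean number of peaks was 3.64 in the runs and 3.56 outside, and the median fold was 6.54 in both. The longest run (the runs were named after their values were seen), from ZNF737 to ZNF681, had peaks in 17 of its 27 genes. The run from ZNF566 to ZNF793 had peaks in all of its 20 genes, 76 in number.

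Exon peaks of ZNF genes lay mostly in the last exon. Of the 335 exon peaks whose transcript had more than 1 exon, 199 were in the last exon (59.4%, 54.1 to 64.5), 104 in an internal exon (31.0%) and 32 in the first (9.55%). In all other genes the last exon held 33.9% (33.0 to 34.8) and the first 24.9%, with a median of 5 exons per transcript against 4 in ZNF genes. On chromosome 19 the last-exon share was 68.8% (60.7 to 75.9), and on other chromosomes 52.6% (45.6 to 59.5), a difference of 16.2 points (5.60 to 26.2). With 1 peak per gene the difference was -5.53 points, with an interval from -29.0 to 18.9. Other genes of chromosome 19 stood at 38.3%. In 74 of the 384 ZNF exon peaks the exon named belonged to another gene, beside 2658 of the 13288 exon peaks of other genes. Among the 284 ZNF peaks that fell in an exon of their own gene with more than 1 exon, the last-exon share was 57.0%. In other genes it was 29.9%. Last-exon peaks of ZNF genes were of lower fold than those of other genes (median 4.64 against 6.54), of like width (300 against 331 bases) and came from 127 genes. Yet 52.8% of them reached an FDR under 0.001, against 42.2% of the last-exon peaks of other genes. The fold of 6.54 is also a repeated value, shared by 2261 peaks of the list.

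Particular genes showed how peaks were laid along such exons. ZNF469, a gene of the brittle cornea syndrome, held the widest ZNF peak, an unbroken 6798 bases in exon 3 of 3 at chr16:88431325-88438122, with a fold of 17.2 and a log10 p of -123. A 3′-UTR peak of 1438 bases and a fold of 6.54 began after a short gap. ZNF804A, a gene tied to schizophrenia risk in genome-wide association studies, had 4 peaks in exon 4 of 4, of which the inner pair, 781 and 720 bases wide, had folds of 34.9 and 20.2 and the outer pair 2.83 and 2.36. ZNF292, mutated in intellectual disability, had a peak of 3716 bases in exon 8 of 8 at a fold of 6.48, and 2158 bases of the 3′-UTR followed at 12.5. ZNF462 differed: 6 of its 9 peaks lay in exon 3 of 13, with folds between 1.53 and 3.91, and its 3′-UTR peak at the end of the gene had a fold of 13.4. ZNF592 likewise had a pair of peaks in exon 4 of 11, at folds of 3.17 and 3.43, and a 3′-UTR peak at 5.94.

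ZNF peaks were wide. The exon bases covered by a peak had a median of 480.5 (quartiles 240 and 1048) against 391 in all other genes, and the union over a gene had a median of 2245 bases against 1022.5. To describe the long exon, a block was called long at 1000 exon bases or more without an intron, a length chosen after the values were seen. Of the ZNF peaks, 392 had such a block (23.8%, 21.8 to 25.9) and of other peaks 11.7%. By gene, 316 of 471 ZNF genes had a long block (67.1%, 62.7 to 71.2) against 24.4% (23.8 to 25.1) of other genes. It was 169 of 229 on chromosome 19 (73.8%, 67.7 to 79.1) and 147 of 242 elsewhere (60.7%, 54.5 to 66.7), a difference of 13.1 points (4.57 to 21.2) that ranged from 9.53 to 14.9 points over the alternatives run. Other genes of chromosome 19 stood at 24.9%. Both groups of other genes hold names outside the protein-coding genes, and their part in the gap was not tested.

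Other families that carry C2H2 fingers under other names lay near the ZNF genes on this measure. A long block was found in 28 of 40 ZBTB genes (70.0%), 9 of 14 ZSCAN genes (64.3%), 5 of 8 ZKSCAN genes (62.5%) and 15 of 19 ZFP genes (78.9%). Their mean numbers of peaks were 3.50, 2.93, 3.75 and 2.84. The families are small, and the intervals of all 4 overlapped that of the ZNF genes. Long blocks were most frequent in ZNF peaks labelled 3′-UTR (29.7%, 26.7 to 32.9, against 12.5% in other genes), then 5′-UTR (23.4%, against 12.7%), and least in exon peaks (11.2%, against 9.96%).

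**Figure D3:**
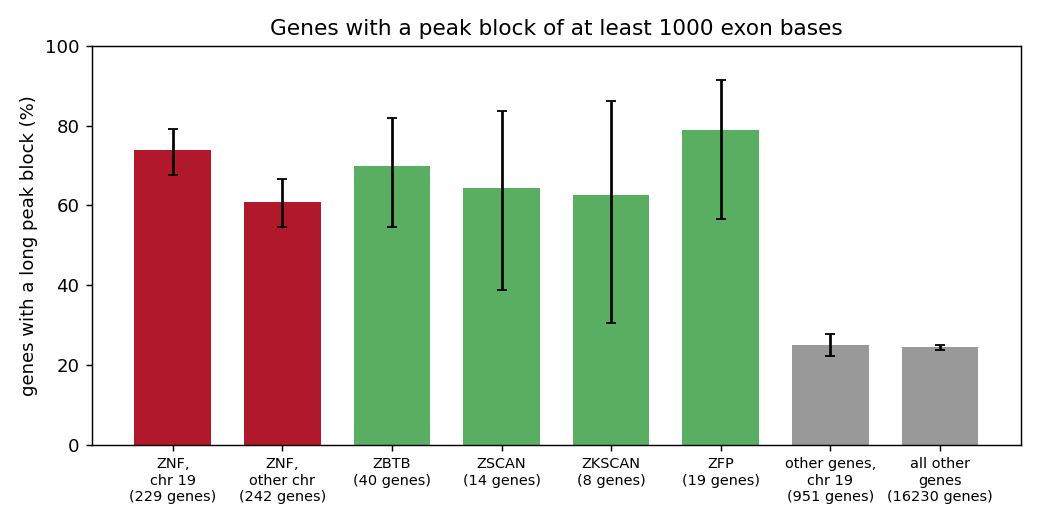
Share of genes with a peak (%, vertical axis, from 0) that had at least 1 peak block of 1000 or more exon bases, for the ZNF groups, 4 other C2H2 families and the remaining genes. Bars give shares and error bars 95% Wilson intervals, and all families of C2H2 genes lay between 60.7% and 78.9%, while the other genes lay at 24.4% and 24.9%.

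Fold enrichment, the linear ratio of enriched RNA to input, had a median of 6.38 over ZNF peaks (quartiles 3.17 and 9.56) against 5.45 (2.72 and 8.71) over the peaks of other genes. The medians were 6.54 on chromosome 19 and 6.01 on other chromosomes, a log2 difference of 0.12 with an interval from -0.02 to 0.23. The regions stood in the opposite order in ZNF and in other genes. In ZNF genes the 3′-UTR peaks had the highest median, 6.81, followed by 5′-UTR at 6.14 and exon at 4.51, and the intervals of the first 2 medians (6.54 to 7.39 and 5.63 to 6.78) overlapped while that of the exon peaks (4.06 to 5.17) lay below them. In other genes the exon peaks had 6.26, the 5′-UTR peaks 5.62 and the 3′-UTR peaks 4.78. On chromosome 19 the ZNF medians were 7.12 for 3′-UTR, 5.68 for 5′-UTR and 5.81 for exon peaks. On other chromosomes they were 6.56, 6.54 and 3.91, so exon peaks had the lowest median there.

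**Figure D4:**
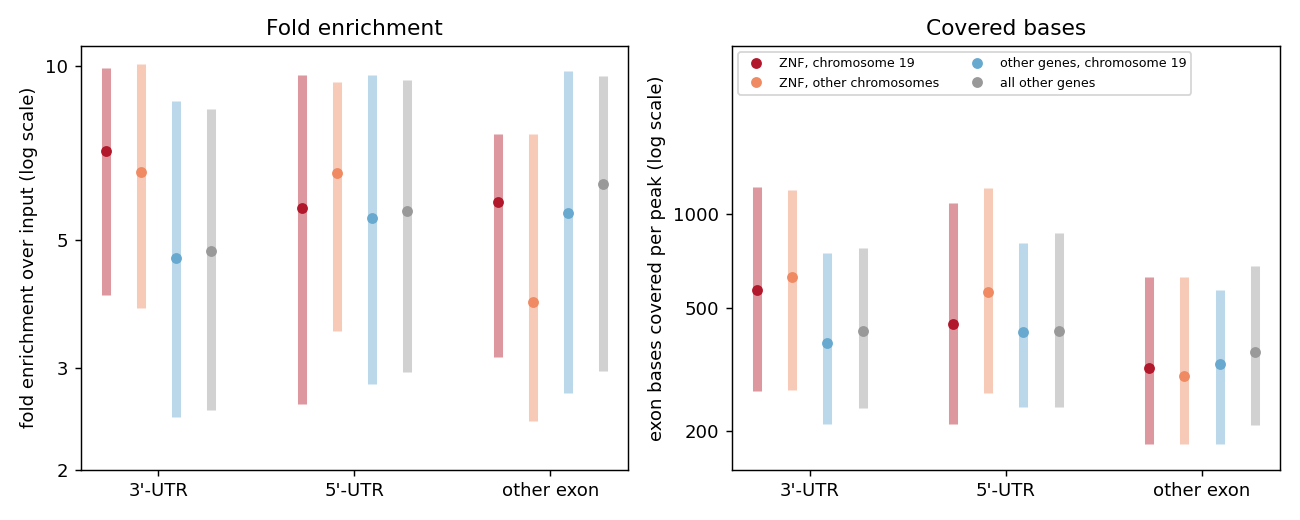
Fold enrichment over input (left, log axis) and exon bases covered per peak (right, log axis) by region for 4 groups of genes. Points are medians and bars span the quartiles over peaks, and ZNF peaks of the 3′-UTR lay above those of other genes in both measures, with median folds of 7.12 and 6.56 against 4.78.

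Part of these values came in steps. The 5 folds 6.54, 7.63, 8.71, 9.80 and 10.9 were shared by 225 ZNF peaks (13.6%, against 16.7% of the list), of which 58 reached an FDR under 0.001, and their median log10 p was -2.13. The highest folds were not the lowest p. ZNF322 and ZNF205 both had a peak at 282, and on chromosome 19 the highest was that of ZNF784 at 185, with a log10 p of -159, -102 and -62.2, which ranked 4135, 5765 and 7847 among all peaks. They were followed by ZNF316 (78.5), ZNF559 (77.3), ZNF175 (71.9), ZNF365 (51.2), ZNF845 (46.8), ZNF692 (41.8) and ZNF44 (40.3), all at an FDR under 0.001. The ZNF365 peak shared bases with a peak of AC067752, a neighbouring transcript name, so its reads cannot be given to 1 of the 2.

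The lowest p-values belonged to other genes. ZNF703, a transcriptional repressor amplified in luminal breast cancer, had 1 peak of 2271 bases with a fold of 17.0 and a log10 p of -2290, which ranked 102 in the list. ZNF503, its close relative, had a peak of 2786 bases at a fold of 27.6 and a log10 p of -1200, although it shares bases with a peak of AC010997. ZNF865 on chromosome 19 had 4005 bases at 13.2 and -1610. These 3 peaks were labelled 5′-UTR. ZNF775, ZNF131, ZNF639, ZNF697, ZNF274, ZNF217 and ZNF148 completed the 10 lowest, with log10 p from -803 to -538 and folds at those peaks from 5.65 to 14.5. The widest peaks after ZNF469 were those of ZNF215 (5968 bases) and ZNF214 (4800 bases). They shared bases with each other on chromosome 11 and had a log10 p of only -1.63 and -1.85, while ZNF646 had 4228 bases in the 3′-UTR at a fold of 10.4 and -241.

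The first role list held 6 genes, repressors of transposons and imprinted loci together with other KRAB repressors. All 6 had a peak, beside 86.3% of the ZNF genes of RefSeq. There were 22 peaks, of which 11 were 3′-UTR, 4 were 5′-UTR and 7 exon, and each gene had a peak at an FDR under 0.001, as did 93.4% of the listed ZNF genes. ZNF91, which represses SVA retrotransposons, had 6 peaks. Its widest, 3327 bases at chr19:23358361-23361687, was labelled 3′-UTR with a fold of 8.06 and a log10 p of -91.7. ZNF93, which represses a group of LINE-1 elements, had 3, with folds of 5.99, 7.63 and 8.17. ZNF445, which maintains methylation of imprinted loci, had 3389 bases of the 3′-UTR at a fold of 10.7 and a log10 p of -170. A separate 3′-UTR peak of 480 bases had a fold of 21.8 and a log10 p of -5.35. ZNF274, which brings the methyltransferase SETDB1 to the 3′ ends of ZNF genes, had a 3′-UTR peak of 1110 bases at a fold of 10.5 and a log10 p of -563, and a pair of weak 5′-UTR peaks at 5.45 and 3.11. ZNF10 had a single peak at 6.24 that shares bases with ZNF268. ZNF202, a repressor of lipid genes, had 8.97 in the 3′-UTR, 4.82 and 2.40 in exons and 1.68 in the 5′-UTR.

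Genes of chromatin complexes and transcription came next. Of 14, 12 had a peak, near the 86.3% over the ZNF genes of RefSeq, and ZNF143 and ZNF711 had none in the list. Their 47 peaks were spread over the regions (16 of 3′-UTR, 14 of 5′-UTR and 17 of exon label), and the median over genes of the highest fold was 6.89, below the 10.4 over all ZNF genes. ZNF217, an oncogene that acts with CoREST and CtBP, had a 3′-UTR peak of 2240 bases at 6.38 with a log10 p of -562. ZNF148, which binds GC-rich promoters, had a 3′-UTR peak at a fold of 14.5 and a log10 p of -538. ZNF281 had a single peak of 2896 bases at 9.22. ZNF410, which activates the remodeller gene CHD4, had 3 overlapping rows over the same 3′-UTR, at 6.27, 6.29 and 6.54. ZNF687, ZNF592 and ZNF532, partners in a complex with ZMYND8, had highest folds of 6.92, 5.94 and 6.54. The remaining members ranged widely. ZNF609 had a 5′-UTR peak at 6.85 with a log10 p of -426, and ZNF335, mutated in microcephaly, a single 3′-UTR peak at 5.45. ZNF644 had 7 peaks between 1.35 and 9.01. The highest peaks of ZNF384, a gene rearranged in leukaemia, and of ZNF516 were at 17.4 and 13.1, with a log10 p of -4.75 and -2.98, and that of ZNF384 was placed in an exon of another gene.

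Genes of development and the nervous system numbered 9. All had a peak (86.3% over the ZNF genes of RefSeq), and 8 had one at an FDR under 0.001 (93.4% over the listed ZNF genes). The median over genes of the highest fold was 16.3, which is the value of 1 peak of ZNF521, against 10.4 over all ZNF genes. The median over their peaks was 6.48, close to the 6.38 over all ZNF peaks. Their 33 peaks fell mostly in exons (19) and less often in the 5′-UTR (9) and 3′-UTR (5). Over all ZNF peaks, 23.3% were exon and 50.6% were 3′-UTR. Of the 19 exon peaks, 7 were of ZNF462 and 4 of ZNF804A, while ZNF703, ZNF503 and ZNF365 had none. The highest folds were those of ZNF365, ZNF804A and ZNF503, at 51.2, 34.9 and 27.6. ZNF521, a regulator of neural and blood progenitors, had a peak at 16.3 in an exon assigned to another gene, with a log10 p of -3.86, and its other 2 peaks were at 3.99 and 2.80. Its relative ZNF423 had 4 weak peaks, none with a log10 p below -2.65. ZNF536, a repressor of neuronal differentiation, was the member on chromosome 19, with 6.59 in its last exon, 4.92 in exon 4 of 6 and 8.71 in a weak 5′-UTR peak.

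Genes of RNA, ribosome, SUMO and mitosis functions were 8, and all had a peak, beside 86.3% over the ZNF genes of RefSeq. Their 28 peaks comprised 13 of 3′-UTR, 8 of 5′-UTR and 7 of exon label, and the median highest fold was 7.92. ZNF593, whose yeast counterpart acts in export of the large ribosomal subunit, had a pair of overlapping 5′-UTR peaks at 27.2 and 7.68. ZNF598, the ubiquitin ligase that marks collided ribosomes, had low folds of 1.79, 2.95 and 2.32. ZNF207, a kinetochore protein, had a single 3′-UTR peak at 2.23, whose log10 p of -127 was nevertheless low. ZNF451, a SUMO ligase, had 7 peaks, with its lowest p in exon 10 of 14 at a fold of 8.43. ZNF638, a DNA-binding protein that silences unintegrated retroviral DNA, had 10.1 in a 5′-UTR peak of 1351 bases. ZNF326, part of a complex coupling elongation to splicing, had 9.30 in the 3′-UTR. ZNF622 had a single peak at 4.04. ZNF346, a binder of double-stranded RNA, had 2.48 at its only peak under an FDR of 0.001 and 6.54 at a weak one.

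**Figure D5:**
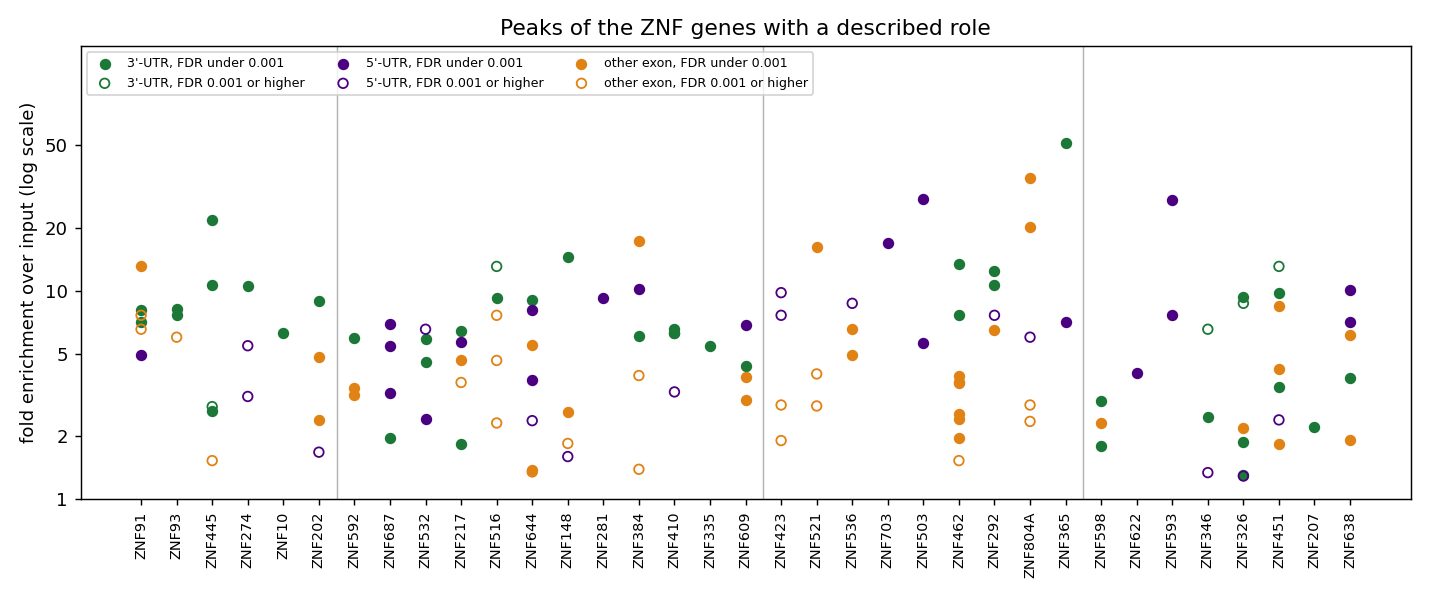
Fold enrichment (vertical axis, log scale) of every peak of the ZNF genes with a described role, with 1 column per gene and vertical lines between the 4 lists (silencing; chromatin; development and neural; RNA, ribosome, SUMO and mitosis). Filled points had an FDR under 0.001 and colours give the region, and the highest point is the ZNF365 peak at 51.2.

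Where ZNF peaks lay relative to transcript ends could be read for 1277 peaks inside the listed transcript. Another 373 lay outside it (29314 inside and 11308 outside in other genes). The 3′-UTR peaks were a median of 1551 genomic bases from the transcript's 3′ end, against 1376 in other genes. Of the 221 ZNF 5′-UTR peaks inside the listed transcript, 40.7% began at its start, against 62.6% of 4323 in other genes. These are parts of the 431 and 9516 listed 5′-UTR peaks, and the rest were left out. Of the ZNF peaks, 324 shared bases with another row (19.6%, against 19.7% of the list). For 268 of them that row carried the same gene name, and 72 peaks shared bases with another gene's row, 20 of them with another ZNF gene and 32 on the opposite strand. Neighbouring ZNF genes are similar in sequence, and the handling of reads that match several of them is not stated.

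The 16 pseudogene names were taken by the rule as well, and those mentioned here were picked after their values were seen. ZNF37BP had 6 peaks, all in exon 8 of 8, of which the widest had 2550 bases at a fold of 27.4 and a log10 p of -58.4. ZNF767P had 3 of its 4 peaks in exon 8 of 8 at folds of 5.65, 1.64 and 3.00. ZNF204P had a peak of 1558 bases at 25.1 with a log10 p of only -6.25. Whether reads given to these names also match other ZNF genes was not examined, and the handling of such reads is not stated.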

How the data were processed

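The deposited table holds 1 row per m6A peak and 24 columns. Per the file headers and the values, the authors' fold enrichment is a linear ratio over input. The p-value per peak is deposited with its log10 and the log10 of the FDR, which are treated here as a score, and no peak has a p above 0.0501. fastp and HISAT2 are the tools that the submitters' notes list, without versions. The sources used here do not give the peak caller, the build or the annotation. As a check, 7242 of 14250 gene names (50.8%) had a transcript start or end identical to RefSeq GRCh38.p14, so that build was used for gene names, gene order and promoter sequences, while peak positions are printed as listed. The table has no column per sample.

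From it, zinc finger rows were counted by region, exon position, chromosome and gene name, with pandas 2.3.3 and NumPy 2.4.6 under Python 3.11.15, using SciPy 1.17.1 for intervals. Covered bases are the summed exon blocks of a peak. Shares carry 95% Wilson intervals, medians order-statistic intervals and means normal ones, and differences combine both arms' intervals. They cover counting error only. The script was tested on simulated lists with known shifts. Members, role lists and the compared measures were chosen with earlier results of these data known. Named genes were the members of 4 role lists (37 genes), the 10 with most peaks (ties by lowest p), the 10 with the lowest p, the 5 on chromosome 19 and the 5 elsewhere with the highest fold at an FDR under 0.001, and the 5 with the widest peaks. The markers were 7 glioma genes and 2 genes of other tissues. Alternatives changed the FDR, merged rows, restricted names, blocks or gene assignment, or kept 1 peak per gene. Counts of finger units in the proteins were not analysed here.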

Additional observations from a re-analysis of the deposited data

How the results depend on the processing

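Of 124 values computed under alternatives, 94 stayed within the interval of the reported value without taking the opposite sign, 23 moved outside it and 7 changed sign. Among the 94, the log2 difference in covered bases between chromosome 19 and the rest was 0 once overlapping and close rows were joined. The alternatives for the share of genes with a long block, and for the differences between chromosome 19 and other chromosomes in long blocks, last-exon share and 3′-UTR share, were chosen after seeing the data, as were the joining of close rows and the removal of peaks that share bases with another gene. With an FDR under 0.001 there were 1070 peaks, of which 54.9% were 3′-UTR, with a mean of 2.43 per gene, a median fold of 7.26 and 776.5 covered bases. With an FDR under 0.05 the mean was 3.05 and the covered bases 571. Peaks of a single block numbered 1073, with a 3′-UTR share of 59.2%, a last-exon share of 73.2%, a mean of 2.65, a median fold of 5.68, 384 bases, and 45.4% of genes with a long block. One peak per gene left 471 peaks, a 3′-UTR share of 59.2%, a fold of 8.96, 1200 bases and 57.1% of genes with a long block. Merging overlapping rows gave a mean of 3.19, and joining rows up to 100 bases apart as well gave 2.86, a fold of 6.59 and 570 bases. Between chromosome 19 and the rest, the difference in mean peaks per gene became -0.018 at an FDR under 0.001 and -0.012 for single blocks. The log2 difference in covered bases, -0.14 in all peaks, became 0.13 at an FDR under 0.001 and 0.18 with one peak per gene. One peak per gene also turned the log2 fold difference to -0.0073, the exon share difference to 0.80 points and the last-exon difference to -5.53 points, the last over fewer exon peaks by construction. Otherwise the cause was not tested. One peak per gene gives no mean number of peaks by construction.

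No paired analysis was possible because values per library are absent from the table, and leaving out a replicate was not possible either. The count of finger units per protein was not run. Depth is unknown, so nothing follows from the absence of a ZNF gene from the list. Neither the name nor the columns of the list settle which transfection the peaks describe.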
